A study of Homo sapiens with 6 samples.

Results

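The interleukin 6 (IL6) family was followed in irradiated human skin fibroblasts through 10 genes of the 61806 in the deposited table. They were chosen by symbol and comprise the cytokines IL6, IL11 and LIF, the shared receptor chain IL6ST, the receptor chains IL6R, IL11RA, LIFR and OSMR, the transcription factor STAT3 and its feedback inhibitor SOCS3. Each symbol matched a single row, and all 10 genes had enough counts to be tested. The cells were HFF, a wild-type foreskin fibroblast culture obtained from a cell bank. In the UVB + sauchinone group, 3 libraries came from cells that received 40 mJ per cm2 of ultraviolet B (UVB) and 10 µM sauchinone, a lignan from plants. In the UVB group, 3 libraries came from cells that received the same UVB dose and, per the labels' protocols, vehicle. Culture then continued for 48 h, and all 6 libraries carry the same batch label. The protocols describe adding the compound after irradiation and also a variant with pretreatment, and do not say which was used here. Irradiation was common to both groups and unirradiated cells were not analysed here, which limits each comparison to the compound on an irradiated background.

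Cytokines of this family share a signalling chain, gp130, which IL6ST encodes. IL6 and IL11 first bind their own alpha receptors, IL6R and IL11RA, and then recruit gp130, whereas LIF assembles gp130 with LIFR, and OSMR pairs with gp130 to receive oncostatin M. The assembled receptor activates JAK kinases, which phosphorylate STAT3, and STAT3 induces SOCS3, a protein that shuts the receptor down. Dermal fibroblasts are a known source of IL6 in sunlight-exposed skin, and IL11 is known as a cytokine of stromal cells.

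The promoters of IL6 and IL11 are shown because these cytokine genes had the largest rises in the family. Sequences are from RefSeq (GRCh38.p14), each covering the 250 bases before the annotated start, and capitals mark matches to 4 motifs searched on both strands. These were AP-1 (TGANTCA), STAT (TTCNNNGAA), the core of the cAMP response element (TGACG) and the NF-kB consensus. IL6 lies at chr7:22726950-22727199 on the plus strand and IL11 at chr19:55370464-55370713 on the minus strand.
IL6: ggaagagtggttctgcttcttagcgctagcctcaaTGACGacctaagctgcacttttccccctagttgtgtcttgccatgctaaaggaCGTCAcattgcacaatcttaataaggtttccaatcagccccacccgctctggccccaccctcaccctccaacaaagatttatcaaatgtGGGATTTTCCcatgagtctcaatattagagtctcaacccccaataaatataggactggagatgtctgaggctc
IL11: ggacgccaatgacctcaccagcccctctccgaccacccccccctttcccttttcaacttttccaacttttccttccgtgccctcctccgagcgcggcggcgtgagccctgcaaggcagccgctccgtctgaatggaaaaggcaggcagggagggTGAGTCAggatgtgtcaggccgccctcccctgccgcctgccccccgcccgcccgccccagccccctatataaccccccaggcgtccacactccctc

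In the IL6 promoter the capitals mark 2 matches to the cAMP response core, which begin 215 and 162 bases before the start, and 1 NF-kB match that begins 73 bases before it. The IL11 promoter holds a single match, to AP-1, beginning 96 bases before the start. None of these matches overlaps another. Over all 35116 RefSeq windows of 300 bases (250 before and 50 after a start), 7.71% hold an AP-1 match, 7.66% a STAT match, 24.6% the cAMP response core and 11.3% an NF-kB match. Over the 16103 windows of tested genes, these shares are 5.54%, 6.29%, 31.7% and 13.2% in the same order. Of those 16103 windows, 8.95% hold 2 or more matches to the cAMP response core. All these shares count windows, not genes. RefSeq windows matched 9 of the 10 genes (13 windows, since some genes have several starts), and not LIF. In those windows AP-1 letters occurred for IL11, IL6R and OSMR, STAT letters for LIFR, the cAMP response core for IL6, SOCS3 and STAT3, and NF-kB letters for IL6, IL6ST and IL11RA. A match describes letters and is not evidence of binding.

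Library totals ran from 21645464 to 23076388 counts in UVB + sauchinone and from 20984851 to 23075536 in UVB, and 15704 genes were tested. All 10 fibroblast markers (such as COL1A1, DCN and PDGFRA) exceeded 1 CPM on average, where CPM is the count scaled to a common library total with TMM correction. Their summed level was 13557 to 13857 CPM in UVB + sauchinone and 19284 to 21034 CPM in UVB. Of 8 leukocyte markers, CD14 alone exceeded 1 CPM on average and CD3E had no count, with sums of 3.16 to 4.92 CPM in UVB + sauchinone and 2.64 to 3.42 CPM in UVB. Of 5 endothelial markers TEK alone exceeded 1 CPM (2.33 to 3.29 CPM summed in UVB + sauchinone, 6.66 to 7.98 CPM in UVB), and CDH5 and KDR had no count. Of 6 keratinocyte markers KRT10 and EPCAM exceeded 1 CPM and KRT5 and KRT1 had no count, with sums of 15.7 to 17 CPM in UVB + sauchinone and 14.1 to 14.7 CPM in UVB. No melanocyte marker of 4 reached 1 CPM, and DCT had no count (1.29 to 1.49 CPM summed in UVB + sauchinone, 1.63 to 2.41 CPM in UVB). The part of these markers in the results was not tested. Nothing in the labels says that replicates came from separate cultures, and p-values then reflect only how far these libraries scatter, possibly for technical reasons.

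The comparison asked which genes of the family differed between irradiated cells with and without sauchinone. IL11, IL6, IL6R and STAT3 rose, IL6ST passed the test narrowly as lower, and LIF, IL11RA, LIFR, OSMR and SOCS3 did not pass. IL11 was 5.8-fold higher and IL6 2.24-fold higher, against 1.67-fold for IL6R and 1.22-fold for STAT3. By the quasi-likelihood test of edgeR, adjusted over all genes (Benjamini-Hochberg) with a threshold of 0.05, 4 of 10 members were higher and 1 of 10 lower. Among all tested genes 49.6% passed, 24.7% higher and 24.9% lower, so the share of members that passed (5 of 10) lay close to the background. The median log2 fold change, UVB + sauchinone over UVB, was 0.26 over the 10 members and 0.0071 over all tested genes. Levels in bulk RNA cannot tell fewer cells of a kind from less RNA per cell.

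**Figure D1:**
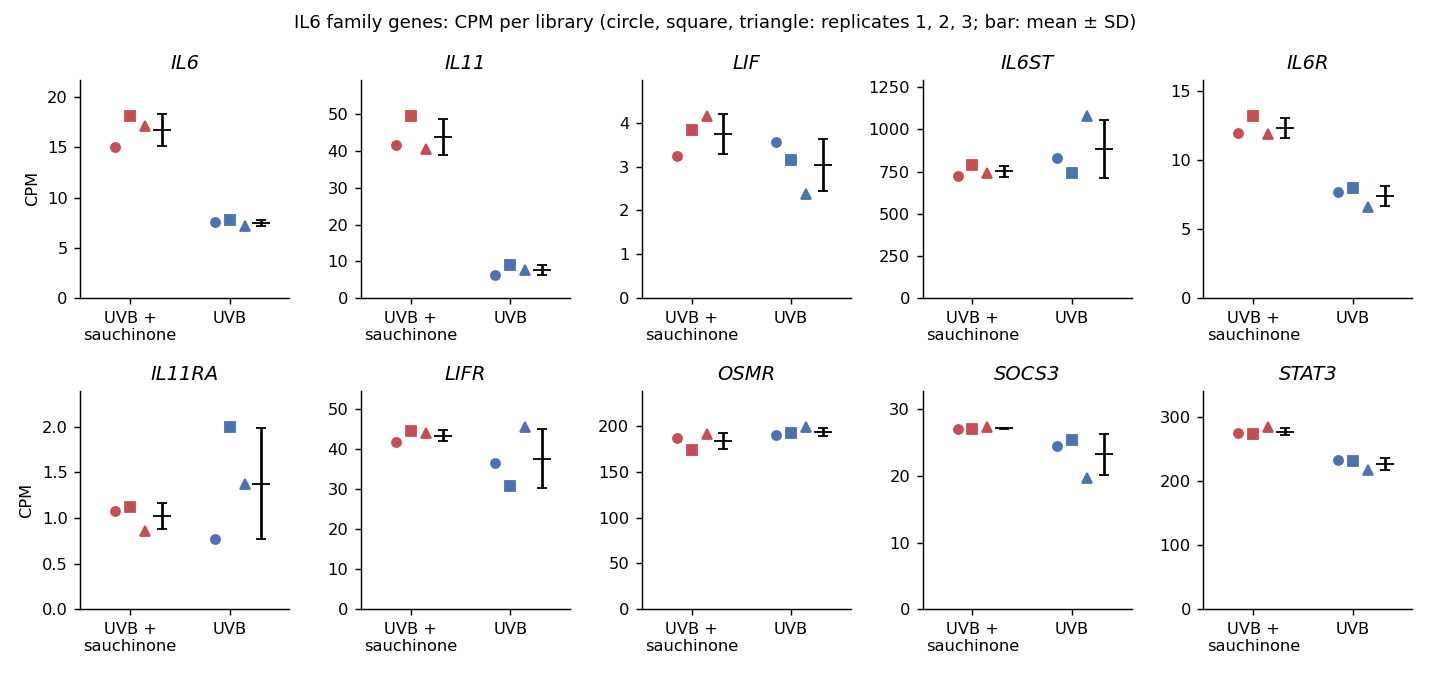
CPM of the 10 genes in every library, with UVB + sauchinone (red) left of UVB (blue) in each panel, symbols for replicates 1 to 3, and the mean ± SD (n = 3) as a black bar. IL11 lies at 40.6 to 49.5 CPM in UVB + sauchinone, above all UVB libraries at 6.25 to 8.88 CPM, whereas IL6ST, LIF, IL11RA, LIFR and OSMR overlap between the groups.

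The ligands moved unequally. IL11 (ENSG00000095752, chromosome 19 at 55364382 to 55370463, minus strand, GRCh38) had 41.6, 49.5 and 40.6 CPM in UVB + sauchinone replicates 1, 2 and 3, and 6.25, 8.88 and 7.54 CPM in UVB replicates 1, 2 and 3. Every UVB + sauchinone library lay far above every UVB library. IL11 rose by 2.54 ± 0.13 on the log2 scale (± SE throughout; adjusted p = 4.6e-13 in edgeR), which ranked 54th among the rises of the 15704 tested genes. IL11 kept its call in all 17 alternative analyses, with log2 fold changes of 2.27 to 2.66.

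IL6 (ENSG00000136244, chromosome 7 at 22725884 to 22732002, plus strand), the inflammatory cytokine that gives the family its name, had 15, 18.1 and 17.1 CPM in UVB + sauchinone replicates 1, 2 and 3, and 7.55, 7.77 and 7.14 CPM in UVB replicates 1, 2 and 3. The groups did not overlap, and the UVB libraries lay within a narrow band. IL6 rose by 1.16 ± 0.13 on the log2 scale (edgeR adjusted p = 1.1e-07), and by 0.94 to 1.26 across the 17 alternatives, each of which kept the call. STEAP1B, a gene on the opposite strand, covers 1730 bases of IL6 and had 640 to 794 counts per library and was itself at −0.19 on the log2 scale (edgeR adjusted p = 0.11). Because the use of strand in counting is not stated, reads of these overlapping genes may not be separable. In GENCODE 29 their exons share 46 bases, 2.22% of the IL6 exons. That release gives IL6 2069 exonic bases against 4321 in the deposited table.

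LIF (ENSG00000128342, chromosome 22 at 30240453 to 30246759, minus strand), a cytokine named for its effect on leukaemia cells, was low in both groups. Its level was 3.25, 3.84 and 4.15 CPM in UVB + sauchinone replicates 1, 2 and 3, and 3.56, 3.15 and 2.38 CPM in UVB replicates 1, 2 and 3. The groups overlapped, since UVB replicate 1 exceeded UVB + sauchinone replicate 1. LIF did not pass, with a log2 fold change of 0.31 and a 95% interval of −0.13 to 0.75 (edgeR adjusted p = 0.23), so neither no change nor a rise of the size seen for STAT3 lay outside it. The interval for LIF lay below those of IL6 (0.90 to 1.43) and IL11 (2.27 to 2.80), but the differences between cytokines were not tested.

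Per length, the 3 cytokines summed to 20.3, 23.8 and 20.6 FPKM (the deposited count scaled to exonic size and library total) in UVB + sauchinone, and to 4.95, 5.81 and 4.99 FPKM in UVB. IL11 made up 77.1 ± 1.76% of this sum in UVB + sauchinone and 52.7 ± 5.23% in UVB (SD, n = 3 in each group). This share depended on the annotation: with GENCODE 29 exon lengths it was 64.5 ± 2.12% in UVB + sauchinone and 39.1 ± 4.49% in UVB. Only the lengths were exchanged, and the counts stayed as deposited. In raw counts, IL11 and IL6 had 3017 and 1152 over the UVB + sauchinone libraries, and 493 and 487 over the UVB libraries. The nearly equal counts of the UVB group stood against a clear excess of IL11 counts in the UVB + sauchinone group. Raw counts also depend on gene length, so equal counts of these genes do not mean equal levels.

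The receptor chains showed a rise of IL6R and small or uncertain differences elsewhere. IL6R (ENSG00000160712, chromosome 1 at 154405193 to 154469450, plus strand), the alpha receptor that confers binding of IL6, had 12, 13.2 and 11.9 CPM in UVB + sauchinone replicates 1, 2 and 3, and 7.69, 7.96 and 6.61 CPM in UVB replicates 1, 2 and 3. The groups did not overlap. IL6R rose by 0.74 ± 0.13 on the log2 scale (edgeR adjusted p = 9.1e-05), and by 0.57 to 0.82 in the 17 alternatives, all of which kept the call. IL6 and its receptor thus both rose.

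IL6ST (ENSG00000134352, chromosome 5 at 55935095 to 55995022, minus strand), the gp130 gene, was per length the most abundant of the 10 genes in both groups. It had 726, 790 and 743 CPM in UVB + sauchinone replicates 1, 2 and 3, and 833, 743 and 1079 CPM in UVB replicates 1, 2 and 3. UVB replicate 3 stood well above all other libraries, while UVB replicate 2 lay within the UVB + sauchinone range. The log2 fold change of −0.23 ± 0.094 passed the threshold narrowly (edgeR adjusted p = 0.043). Without UVB replicate 3 it was −0.07 (edgeR adjusted p = 0.38), without UVB replicate 2 −0.35 (0.00027), and without UVB + sauchinone replicate 1, 2 or 3 the call was lost as well (adjusted p = 0.15, 0.053 and 0.12). Removing each library's trend with exonic size gave −0.0057 (adjusted p = 0.96), and the call held in only 6 of 17 alternatives, with adjusted p from 0.00027 to 0.96. IL6ST has 12060 exonic bases. UVB replicate 3 exceeded the mean of the other UVB libraries by 0.45 on the log2 scale for IL6ST and by a median of 0.093 over the 2235 tested genes with at least 10000 exonic bases, against −0.0094 over all tested genes.

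LIFR (ENSG00000113594, chromosome 5 at 38474668 to 38608354, minus strand), the receptor chain for LIF, had 41.7, 44.3 and 43.8 CPM in UVB + sauchinone replicates 1, 2 and 3, and 36.4, 30.7 and 45.3 CPM in UVB replicates 1, 2 and 3. As for IL6ST, UVB replicate 3 was the highest UVB library, here above every UVB + sauchinone library. LIFR did not pass, with a log2 fold change of 0.21 and a 95% interval of −0.024 to 0.44 (edgeR adjusted p = 0.13). Without UVB replicate 3 it was 0.36 (edgeR adjusted p = 0.0016), and without UVB replicate 2 it was 0.077 (0.57). Removing a trend with the genomic span, the exonic size or the GC content of genes gave 0.56, 0.43 and 0.39, each past the threshold (adjusted p = 7.8e-05, 0.00089 and 0.00025). LIFR-AS1, on the opposite strand, overlaps 51590 bases of LIFR and had 15 to 29 counts per library. LIFR spans 134 kb, against a median of 28 kb over all tested genes.

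OSMR (ENSG00000145623, chromosome 5 at 38845858 to 38945596, plus strand), the receptor chain for oncostatin M, was at 186, 174 and 191 CPM in UVB + sauchinone replicates 1, 2 and 3, and at 190, 192 and 198 CPM in UVB replicates 1, 2 and 3. The groups overlapped, and the log2 fold change of −0.07 had a 95% interval of −0.22 to 0.079 (edgeR adjusted p = 0.44). RICTOR, on the opposite strand, overlaps the end of OSMR by 7677 bases and had 1517 to 2489 counts per library, against 3943 to 4484 for OSMR. Their exons share 229 bases in GENCODE 29, 3.19% of the OSMR exons.

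IL11RA (ENSG00000137070, chromosome 9 at 34652162 to 34661902, plus strand), the alpha receptor for IL11, had few counts. It had 24, 26 and 20 counts in UVB + sauchinone replicates 1, 2 and 3, and 16, 43 and 31 counts in UVB replicates 1, 2 and 3. The UVB libraries spread more widely than the difference between groups. The log2 fold change of −0.43 had a 95% interval of −1.18 to 0.31 (edgeR adjusted p = 0.34), and was −0.72 without UVB replicate 1 and −0.078 without UVB replicate 2 (adjusted p = 0.13 and 0.9). A same-strand readthrough gene covers 9725 bases of IL11RA, which spans 9.74 kb, and had at most 7 counts in a library. How reads that hit both genes were counted is not stated. If such reads were dropped, the level of IL11RA is understated, here and beside the other genes. The rise of IL11 stood beside an alpha receptor counted at 0.856 to 1.12 CPM in UVB + sauchinone and 0.769 to 1.99 CPM in UVB.

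**Figure D2:**
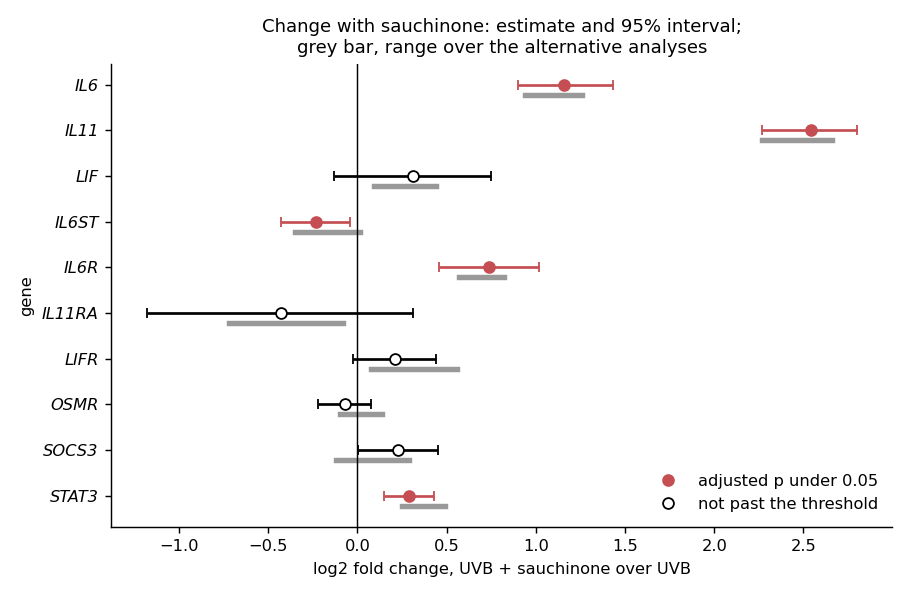
Log2 fold change of each gene, UVB + sauchinone over UVB, with its 95% interval from the edgeR fit (red, adjusted p under 0.05) and the range over 17 alternative analyses (grey). The grey range stays right of 0 for IL6, IL11, IL6R and STAT3, and also for LIF (0.094 to 0.44) and LIFR (0.077 to 0.56), which did not pass, and it reaches 0.014 for IL6ST.

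Downstream of the receptors, STAT3 rose modestly and its feedback gene did not pass the test. STAT3 (ENSG00000168610, chromosome 17 at 42313324 to 42388540, minus strand), the transcription factor that carries the signal to the nucleus, had 275, 274 and 284 CPM in UVB + sauchinone replicates 1, 2 and 3, and 233, 232 and 217 CPM in UVB replicates 1, 2 and 3. The groups were well apart for so small a fold. STAT3 rose by 0.29 ± 0.069 on the log2 scale (edgeR adjusted p = 0.0014), and by 0.25 to 0.49 in the 17 alternatives, all of which kept the call.

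SOCS3 (ENSG00000184557, chromosome 17 at 78356778 to 78360077, minus strand), the inhibitor that STAT3 induces, had 27, 27 and 27.2 CPM in UVB + sauchinone replicates 1, 2 and 3, and 24.5, 25.4 and 19.6 CPM in UVB replicates 1, 2 and 3. The UVB + sauchinone libraries were nearly identical and all above the UVB libraries, among which replicate 3 was low. The log2 fold change of 0.23 ± 0.11 missed the threshold (edgeR adjusted p = 0.087). SOCS3 passed in 2 of 17 alternatives, without UVB replicate 2 (0.29, edgeR adjusted p = 0.033) and with total counts as the only scaling (0.27, 0.042). Without UVB replicate 3, the low library, the log2 fold change was 0.11 (edgeR adjusted p = 0.36). It was 0.091 with an exonic size trend removed (0.48), 0.0012 with a span trend removed (0.99) and −0.12 with a GC content trend removed (0.26). In 5 of the 10 genes, IL6, IL11, IL6R, SOCS3 and STAT3, the libraries of the groups did not overlap, against 57.1% of all tested genes.

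Per length, the family covered a wide range of levels. In UVB + sauchinone the order of mean FPKM was IL6ST (63.4 ± 2.13), OSMR (26 ± 1.48), STAT3 (25.2 ± 0.617), IL11 (16.6 ± 1.68), SOCS3 (10.1 ± 0.125), IL6 (3.93 ± 0.336), LIFR (3.61 ± 0.0896), IL6R (1.8 ± 0.0907), LIF (0.983 ± 0.116) and IL11RA (0.197 ± 0.0231; SD, n = 3). OSMR and STAT3 overlapped between libraries, as did IL6 and LIFR. In UVB the order was IL6ST (72.3 ± 14.2), OSMR (26.5 ± 0.528), STAT3 (20 ± 0.803), SOCS3 (8.35 ± 1.13), LIFR (3.03 ± 0.598), IL11 (2.78 ± 0.47), IL6 (1.7 ± 0.0737), IL6R (1.04 ± 0.0987), LIF (0.77 ± 0.157) and IL11RA (0.26 ± 0.11; SD, n = 3). LIFR and IL11 overlapped there. Parts of this order depended on the annotation. With GENCODE 29 exon lengths IL6 was at 8.21 ± 0.701 FPKM in UVB + sauchinone, above LIFR at 3.7 ± 0.0919 without overlap (SD, n = 3). In UVB the IL6 mean was 3.56 ± 0.154 FPKM, above the means of LIFR at 3.11 ± 0.612 and IL11 at 2.78 ± 0.471 (SD, n = 3). The UVB libraries of IL6 (3.38 to 3.68 FPKM) and LIFR (2.53 to 3.75 FPKM) overlapped. With those lengths STAT3 was at 32 ± 0.785 FPKM in UVB + sauchinone, above OSMR at 26 ± 1.48 (SD, n = 3). The counts remained those of the deposited annotation, so a shorter length, as for IL6, may overstate the level. IL11 stood above SOCS3 in UVB + sauchinone and below it in UVB. Receptor chains other than IL6ST (IL6R, IL11RA, LIFR and OSMR) summed to 32.1, 30.1 and 32.7 FPKM in UVB + sauchinone and 30.4, 30.1 and 31.9 FPKM in UVB, sums that overlapped.

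**Figure D3:**
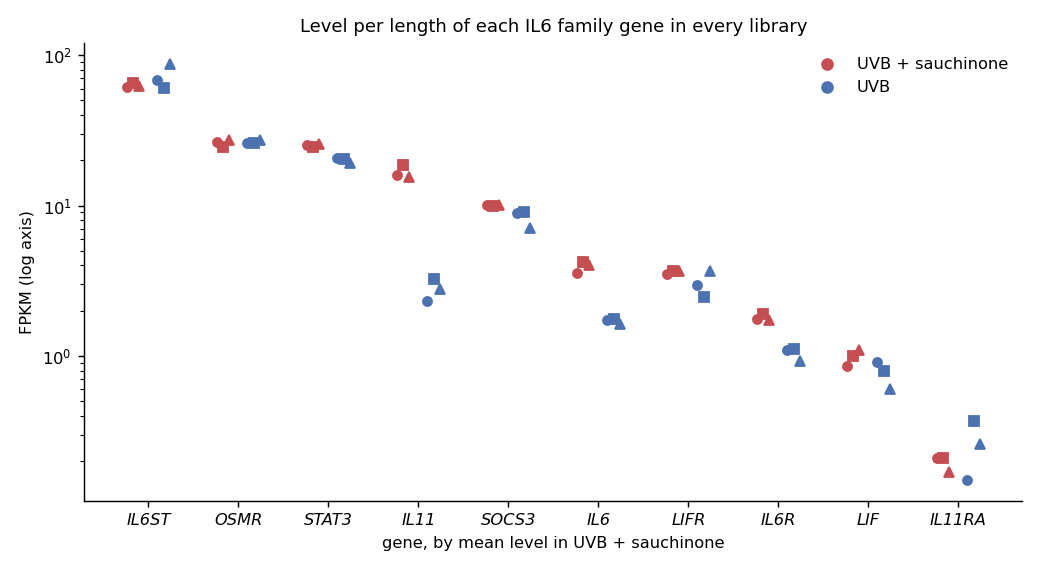
FPKM on a log axis for each gene and library, ordered by the mean in UVB + sauchinone (red, left of UVB in blue), with circles, squares and triangles for replicates 1, 2 and 3. IL11 moves most, with 15.45 to 18.56 FPKM in UVB + sauchinone and 2.31 to 3.25 FPKM in UVB, while IL6ST tops the order in both groups.

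The genes differ in structure as well as in level. IL6, IL11 and LIF span 6.12, 6.08 and 6.31 kb and SOCS3 3.3 kb, whereas IL6ST, IL6R, STAT3, OSMR and LIFR span 59.9 to 134 kb. The pentamer ATTTA, the core of AU-rich elements that shorten the life of cytokine mRNA, was counted in the 3′ untranslated region of the transcript with the longest coding sequence in GENCODE 29. IL6 held 6 copies in 432 bases, or 13.9 per kb, a density above that of 99.6% of 11841 tested genes with at least 100 such bases. IL11 held 9 copies in 1621 bases (5.55 per kb, above 92.4% of those genes) and LIF 7 copies in 3207 bases (2.18 per kb), against a median density of 1.72 per kb. IL11RA held no copy in 386 bases.

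Other ligands of gp130 or a related receptor were considered next, from a list of 8 genes. Of the 4 with enough counts, 3 rose, CLCF1 and CNTF among them, and CTF1 fell. Of all tested genes, 24.7% were higher and 24.9% lower. CLCF1, a cytokine that binds the CNTF receptor, had 13.1, 12.9 and 13.5 CPM in UVB + sauchinone replicates 1, 2 and 3, and 7.84, 7.08 and 5.46 CPM in UVB replicates 1, 2 and 3. It rose by 0.96 ± 0.14 on the log2 scale (edgeR adjusted p = 8e-06), with no overlap between the groups. RAD9A, an opposite-strand gene with 44 to 109 counts, overlaps 10010 bases of CLCF1, so the value is uncertain if counting ignored strand. CTF1, the gene of cardiotrophin 1, was at 2.54 ± 0.565 CPM in UVB + sauchinone and 4.48 ± 0.571 CPM in UVB (n = 3 in each group), a fall by 0.82 on the log2 scale (edgeR adjusted p = 0.0028). CNTF rose by 1.37 ± 0.43 (edgeR adjusted p = 0.011) at 17 to 25 counts per UVB + sauchinone library and 7 to 9 per UVB library.

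The remaining ligands were at or near 0. OSM, which encodes the ligand of OSMR, had 1 count over the UVB + sauchinone libraries and 0 over the UVB libraries. EBI3 had 18 counts in UVB + sauchinone and 13 in UVB, and IL27 and IL31 had none. Among 3 further receptor chains, IL27RA did not pass (log2 fold change 0.08, edgeR adjusted p = 0.76), IL31RA had 14 counts in UVB + sauchinone and 11 in UVB, and CNTFR had 1 count in UVB + sauchinone and 0 in UVB. CNTFR, a chain of the receptor through which CLCF1 and CNTF are known to act, thus had a single count in 6 libraries. That count covers this chain alone and not the shared chains IL6ST and LIFR, whose levels are given above.

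Kinases, STAT factors and adaptors used by gp130 mostly fell, with 8 of 12 lower, 2 higher and a median log2 fold change of −0.31, where 24.9% of all tested genes were lower and 24.7% higher. STAT2, a mediator of interferon signalling, was at 83.1 ± 4.77 CPM in UVB + sauchinone and 112 ± 1.01 CPM in UVB (n = 3 in each group), and fell by 0.43 on the log2 scale (edgeR adjusted p = 8.8e-05), and SHC1, an adaptor to the RAS pathway, rose by 0.43 ± 0.071 (edgeR adjusted p = 3e-05). STAT3 thus had the opposite sign to STAT2. The kinase genes JAK1 and JAK2, looked up after their values were seen, had log2 fold changes of −0.29 and −0.68 (edgeR adjusted p = 0.0013 and 0.0001). With a trend in genomic span or exonic size removed, 3 of these 12 genes were lower in each case and 3 higher. SHC1 was at 0.24 with the span trend and 0.26 with a GC content trend removed. Without UVB + sauchinone replicate 1, or without UVB replicate 1, 1 gene was higher.

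Negative regulators other than SOCS3 moved both ways, with 6 of 14 tested genes higher, 5 lower and a median of 0.22, beside 24.7% higher and 24.9% lower over all tested genes. SOCS7, a SOCS protein, had 36.3, 41 and 38.6 CPM in UVB + sauchinone and 20.2, 19.3 and 20.4 CPM in UVB, and rose by 0.95 ± 0.096 (edgeR adjusted p = 3.2e-08). PTPN1, a phosphatase that removes phosphate from JAK kinases, and PIAS3, an inhibitor of STAT3, rose by 0.63 ± 0.077 and 0.62 ± 0.086 (edgeR adjusted p = 4.7e-07 and 3.4e-06). Among other SOCS genes, SOCS2 was at −0.62, and SOCS1 at 1.65 with 57 counts over the UVB + sauchinone libraries and 17 over the UVB libraries, both named after their values were seen. PTPN6 was not tested, with 26 counts in UVB + sauchinone and 11 in UVB. The count of lower genes was unstable: it was 2 without UVB + sauchinone replicate 1 or 2 or UVB replicate 1, and 3 without replicate 3 of either group. It was also 2 with the replicate number as a block, with total counts as the only scaling, with no filter on low counts, and with a trend in GC content, exonic size or span removed.

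Among 24 genes known to respond to STAT3 or IL6, 18 were tested, of which 11 rose, 3 fell and 4 did not pass, with a median of 0.52. Over all tested genes 24.7% were higher and 24.9% lower. The list was chosen with earlier results of these data known, so its share is not a test of STAT3 activity. TIMP1, an inhibitor of matrix metalloproteinases, was at 492 CPM in UVB + sauchinone and 307 CPM in UVB, and rose by 0.68 ± 0.068 (edgeR adjusted p = 2.8e-08), or by 0.45 with a span trend removed. JUNB, an AP-1 subunit that also responds to growth factors, rose by 1.15 ± 0.12 (edgeR adjusted p = 5.5e-08), or by 0.85 with a GC content trend removed. Its 1830 bases lie within HOOK2, an opposite-strand gene with 137 to 198 counts per library, against 266 to 750 for JUNB. The value is therefore uncertain if counting ignored strand. TNFRSF10B, a death receptor gene better known as a p53 target, rose by 0.71 ± 0.077 (edgeR adjusted p = 8.1e-08). The genes that fell were CCND1, HIF1A and NNMT (chosen for naming by that outcome), at −0.43, −0.65 and −0.45. The acute phase genes of the list were at or near 0, with no count for SERPINA3, LBP and LRG1, 3 counts in UVB + sauchinone and 2 in UVB for SAA1, 0 in UVB + sauchinone and 4 in UVB for SAA2, and 7 in UVB + sauchinone and 8 in UVB for FGG. None of these 6 was tested.

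RNA-binding proteins that act on IL6 mRNA or related messages rose in 4 of 10 genes and fell in 2, with a median of 0.22, and all tested genes were higher in 24.7% and lower in 24.9%. Without UVB + sauchinone replicate 1 or 3, or UVB replicate 1 or 2, 1 of them was lower, as with the replicate block, total counts only, no filter or the exonic size trend removed. ZC3H12A, which encodes the RNase Regnase-1 that degrades IL6 mRNA, had 6.05, 5.78 and 4.62 CPM in UVB + sauchinone and 2.21, 2.31 and 2.2 CPM in UVB, and rose by 1.29 ± 0.20 (edgeR adjusted p = 1.1e-05). KHSRP, a decay factor for AU-rich messages, rose by 0.40 ± 0.078 (edgeR adjusted p = 0.00018; 0.16 and 0.22 with a GC or span trend removed), and ZFP36L2, a relative of tristetraprolin, fell by 0.57 on the log2 scale (edgeR adjusted p = 1.6e-06). Of the receptor-shedding proteases, ADAM10 was at 151 ± 4.88 CPM in UVB + sauchinone and 245 ± 40.4 CPM in UVB (n = 3 in each group; log2 fold change −0.70, edgeR adjusted p = 1.3e-06). With the exonic size or span trend removed it was at −0.39 and −0.24, both past the threshold. ADAM17, which releases soluble IL6R, did not pass (0.065, edgeR adjusted p = 0.58), but did so as higher with a trend in GC content (0.24, 0.0064) or exonic size (0.37, 0.00094) removed. IAH1, on the opposite strand, overlaps 8058 bases of ADAM17 and had 480 to 707 counts per library, against 910 to 1208 for ADAM17. The ADAM17 value is therefore uncertain if counting ignored strand.

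**Figure D4:**
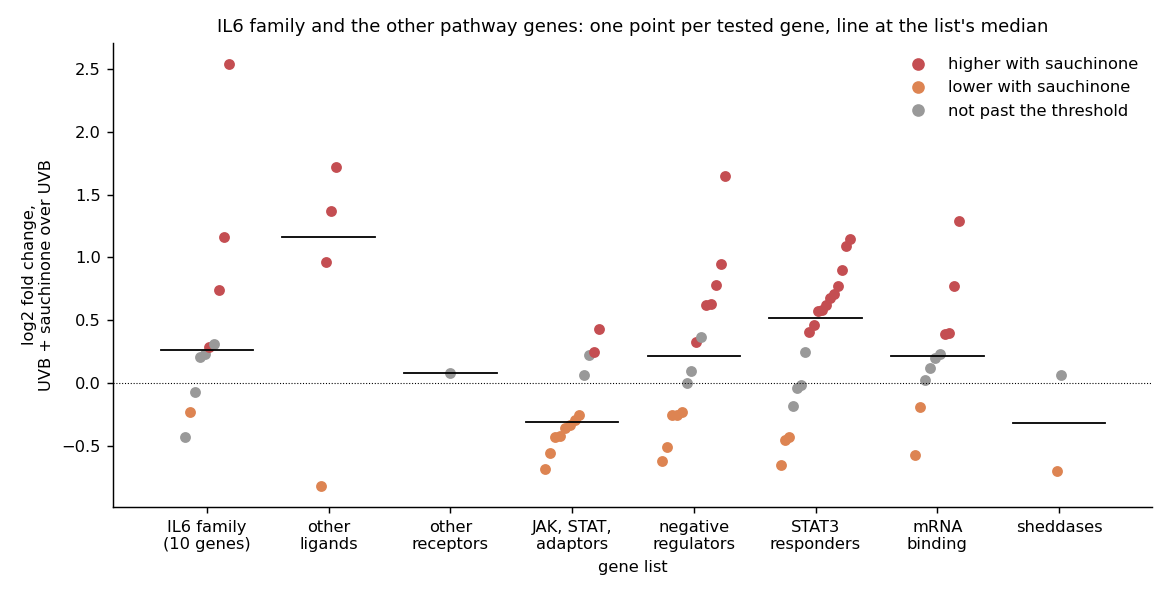
Log2 fold change, UVB + sauchinone over UVB, of each tested gene in the 10-gene family and in 7 lists of other pathway genes, coloured by the outcome of the edgeR test, with a line at each list's median. The JAK, STAT and adaptor list has its median at −0.31, below that of the family at 0.26 and of the STAT3 responders at 0.52.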

How the data were processed

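RNA of 6 libraries was sequenced paired-end. The authors deposited whole-number counts for each gene, FPKM values and exonic gene sizes. GRCh38 is the build named in the submitters' processing notes; aligner, counter, annotation release and use of strand were not given in the sources used here. Per the labels' protocols, mRNA was captured on oligo(dT) or ribosomal RNA was removed, without saying which applied, and strand marking with dUTP is described. Every deposited FPKM matched its count divided by exonic size and library total (100% of values, tolerance 0.006).

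Counts were fitted in R 4.3.3 with edgeR 4.0.16 (filterByExpr, TMM scaling, quasi-likelihood test, two-sided, no covariate) and adjusted over all 15704 genes tested. Each standard error is the fold change divided by the square root of F (median 0.12), and 95% intervals use the degrees of freedom of the fit. The fit was checked on simulated counts. Alternatives were DESeq2 1.42.0, limma-voom (limma 3.58.1), other scalings and filters, a replicate block, leaving out each library, and removal of lowess trends with span or exonic size. A trend with GC content (GENCODE 29 transcripts, 98.2% of tested genes) was added after seeing the data.

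The members and lists were chosen with earlier results of these data known. The text names all 10 members, the 3 genes with the smallest p in each of 7 lists, those untested for low counts, and others where stated. A few genes that this rule would name are not reported here.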

Additional observations from a re-analysis of the deposited data

How the results depend on the processing

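The calls of IL11, IL6, IL6R and STAT3 held in all 17 alternatives. The single lower member, IL6ST, was lost (0 lower) with DESeq2, limma-voom, the replicate block, total counts only, and removal of a trend with GC content, exonic size or genomic span, and the count of lower members ran from 0 to 1 as libraries were left out in turn. Lower genes among the other pathway lists, 20 of 61 tested, became 11 with the exonic size trend removed and 12 with the span trend removed. Of all tested genes, 24.9% were lower in the main fit. Signs turned for genes that did not pass: SOCS3 to −0.12, OSMR to 0.099 and IL27RA to −0.11 with the GC trend removed, OSMR to 0.14 and IL27RA to −0.037 with the span trend, and IL27RA to −0.039 with the exonic size trend and to between −0.067 and 0.21 as libraries were left out. IL6ST turned to 0.014 with the GC trend removed. The causes of these changes were not tested. Same-numbered libraries did not deviate together (correlations of 0.00614, −0.0703 and −0.0288), and libraries of different number gave −0.0636 to 0.09. The check gave no sign of pairing by number, but 3 libraries per group cannot exclude it. With the replicate block 4 members were higher and 0 lower, and 3603 genes were higher and 3677 lower, against 3872 and 3914 without it. A floor of 3 counts corresponds to 0.13 to 0.143 CPM, which limits statements on OSM, CNTFR and the acute phase genes.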

Other observations

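IL6ST and LIFR shared their spread within the UVB group, and their ratio did not. The ratio of IL6ST to LIFR in FPKM, chosen after its values were seen and so not tested, was 17.6, 18 and 17.1 in UVB + sauchinone replicates 1, 2 and 3, and 23.1, 24.4 and 24 in UVB replicates 1, 2 and 3. UVB replicate 3, which was high for both genes, lay between the other UVB libraries in this ratio. Both genes lie on chromosome 5, minus strand, with 12060 and 12159 exonic bases, and with spans of 59.9 and 134 kb.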
